A study of Caenorhabditis elegans with 30 samples.

Results

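The comparison set wild-type larvae at 48 h of L1 arrest against wild-type larvae at 24 h, the step between adjacent times that spans the second day without food. It used 6 of the 30 libraries of the series, 3 biological replicates at each time, chosen by their labels as strain N2 at 36 h and at 60 h after bleaching, which are 24 h and 48 h of arrest. N2 is the laboratory wild type of Caenorhabditis elegans and carried no added allele or transgene. Its embryos were freed from mothers by bleaching and hatched in S-basal, a salt buffer without food. Each library held polyadenylated RNA of whole starved larvae, many larvae to a pool, so that the values are averages over all tissues. Libraries of N2 at 6, 12 and 72 h (18, 24 and 84 h after bleaching) and of the double mutant irld-39(duk1); irld-52(duk17), called irld here, entered the same model and gave the neighbouring steps. The irld larvae were starved in the same way, and irld-39 and irld-52 are members of a family named for receptor L-domains, which also occur in the insulin and EGF receptors.

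L1 arrest is the developmental stop of larvae that hatch without food. Low insulin-like signalling lets the transcription factor DAF-16 enter nuclei, where it turns on stress-resistance genes and holds back cell division, and the larvae live on stored lipid and carbohydrate until food arrives. The first larval cuticle is made in the embryo, so a larva that arrests after hatching already wears it. Translation, neuropeptide signalling and lipid desaturation are among the functions known to respond to food in this animal.

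Gene counts of the 6 libraries totalled 8307038 to 10698205, and 15508 of 46911 genes had enough counts over the series to be tested. Levels are CPM, gene counts scaled to a common library total, after TMM normalization and listed for replicates 1, 2 and 3 in that order, and log2 differences are 48 h less 24 h with their standard error. Markers of larval tissues were all measured: summed CPM was 3744 to 6726 for 11 neuron markers and 20249 to 31684 for 10 muscle markers, against 19.4 to 60.9 for 10 adult yolk and oocyte genes. The replicates did not vary evenly. In replicate 1 the 16 intestine markers summed to 28031 CPM at 24 h and 26327 at 48 h, above the other 4 libraries, which held 10859 to 14038, and the 30 DNA replication genes summed to 528 and 489, below the other 4, which held 716 to 1067. Replicate 1 thus deviated alike at both times, and counts from a fit with the replicate number as a block are given for most lists described. Replicate 2 at 24 h stood apart in small heat-shock genes, and replicate 1 at 24 h in molting and body-shape collagen genes; both are described with those genes. Their part in the other results was not tested beyond leaving each library out.

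From 24 to 48 h, 26 genes changed (edgeR quasi-likelihood test, Benjamini-Hochberg adjusted p under 0.05), 19 of them higher and 7 lower at 48 h. These were 0.168% of the tested genes, 0.123% higher and 0.0451% lower, and the lowest adjusted p was 0.0038. At an unadjusted p under 0.05 there were 2170 genes (14% of those tested), 901 higher (5.81%) and 1269 lower (8.18%). Counts of list members at that threshold, given below, are to be read beside these shares. With the replicate number as a block, edgeR called 208 genes (1.34%), 140 higher (0.903%) and 68 lower (0.438%), and DESeq2 without a block called 330, 180 higher and 150 lower. The count rested on single libraries. It was 164 without replicate 1 at 24 h, 4 without replicate 2 and 9 without replicate 3 at 24 h, and 2, 4 and 7 without replicates 1, 2 and 3 at 48 h. All 30 libraries share 1 estimate of the spread, and the count was also 48 without N2 replicate 1 at 12 h, 43 without N2 replicate 1 at 6 h and 13 without irld replicate 2 at 24 h. Scaling by library size alone turned the balance to 17 higher and 46 lower and moved the median of all genes to -0.15, and scaling by the ERCC spike-in, RNA added in proportion to total RNA, gave 0 calls. The ERCC share of counts was uneven, at 1.79 to 3.28% in the 6 libraries and 0.304 to 3.88% in all 30. Its part in the 0 calls was not tested. All 26 genes kept their fitted direction under each scaling, filter and tool tried, in the block fit, in the fit of N2 alone and without any of the 6 libraries.

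The neighbouring steps were larger before and smaller after. N2 changed in 963 genes from 6 to 12 h (6.21%; 1550 with the block), in 2263 from 12 to 24 h (14.6%; 2990 with the block) and, by edgeR, in 0 from 48 to 72 h, where 825 genes had an unadjusted p under 0.05, DESeq2 called 19 and limma-voom 0. Among 11771 genes with a mean of at least 2 CPM, the median absolute log2 difference was 0.268 from 6 to 12 h, 0.330 from 12 to 24 h, 0.230 from 24 to 48 h and 0.165 from 48 to 72 h. Adjacent steps share the libraries of the time between them, and the steps span unequal hours. For the step from 24 to 48 h the 95% interval of a gene's log2 difference reached 0.49 to either side at the median, and for 8190 of the 11771 genes (69.6%) the interval lay within a 2-fold change either way.

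**Figure D1:**
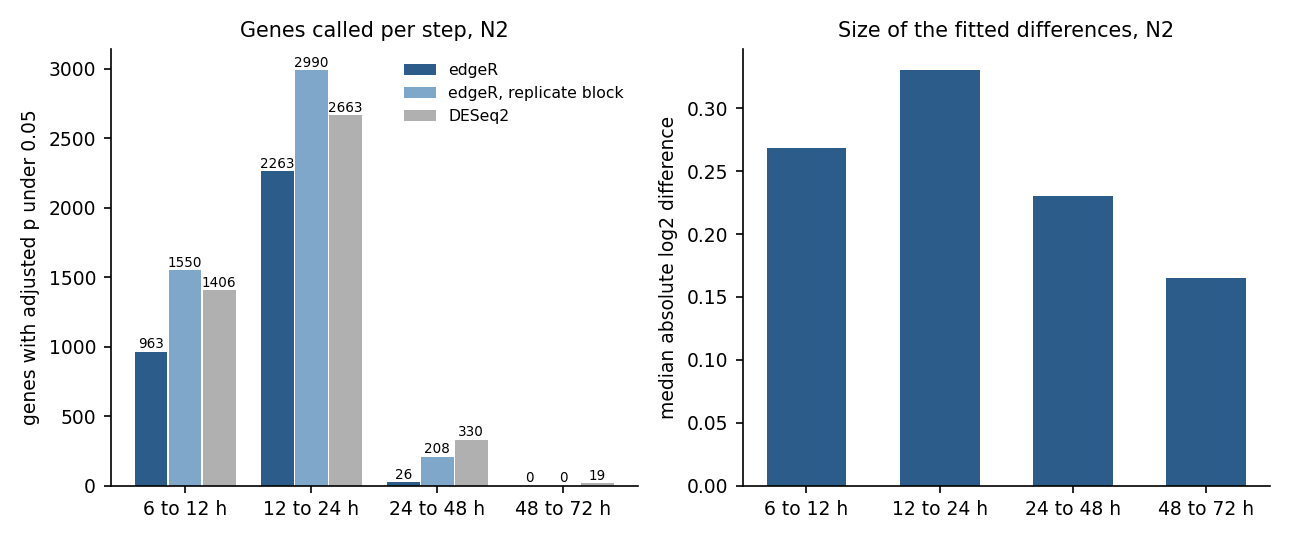
Number of genes with an adjusted p under 0.05 in each adjacent step of N2 arrest by 3 fits (left, bars from 0) and the median absolute log2 difference of 11771 genes with a mean of at least 2 CPM in the edgeR fit (right). The step from 24 to 48 h had 26, 208 and 330 calls by edgeR, edgeR with the replicate block and DESeq2.

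Genes that rose between 24 and 48 h included a translation initiation factor, a fatty acid desaturase, an enzyme of purine synthesis and several genes of less studied function. By fitted difference dao-6 (WBGene00000932, III 9735263 to 9736201), named for its expression in dauer larvae and ageing adults, rose most among the 11 with a public name. Its level was 59.2, 47.4 and 57.4 CPM at 24 h and 88.7, 207 and 130.4 at 48 h, a log2 difference of 1.38 ± 0.28 (2.60-fold, adjusted p = 0.0334). All 3 later libraries lay above all 3 earlier ones, with replicate 2 highest and replicate 1 lowest at 48 h. It had been 9.5 ± 2.71 CPM (SD, n = 3) at 6 h, and had been called higher at 24 h than at 6 h (edgeR adjusted p = 4.57e-07), and it was 262 ± 64.3 at 72 h.

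pqn-59 (WBGene00004143, I 379071 to 381902), which encodes a prion-like glutamine- and asparagine-rich protein, had the smallest p of the step. Its level was 3139, 2141 and 2362 CPM at 24 h and 6460.5, 5679 and 4648 at 48 h, a log2 difference of 1.14 ± 0.16 (adjusted p = 0.0038, or 3.65e-05 with the block). The groups were far apart: the lowest library at 48 h was well above the highest at 24 h. pqn-59, moe-3 and znf-593 each overlap another protein-coding gene, and reads of overlapping genes could be shared because the counting's use of strand is not given in the sources used here. fat-2 (WBGene00001394, IV 13323873 to 13326395), the desaturase that turns oleic into linoleic acid, stood at 1154, 843 and 1012 CPM and then at 1978, 1998 and 1722, a log2 difference of 0.92 ± 0.16 (1.89-fold, adjusted p = 0.0129). The 3 libraries at 48 h were close together and above every library at 24 h.

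eif-3.G (WBGene00001230, II 8442767 to 8444175), a subunit of the initiation factor that brings messenger RNA to the small ribosomal subunit, had 217, 215 and 189 CPM at 24 h and 337, 315 and 273 at 48 h, a log2 difference of 0.58 ± 0.12 (adjusted p = 0.0488). adss-1, which encodes adenylosuccinate synthase of the AMP branch of purine synthesis, had 2029, 1607 and 1841 CPM and then 2963, 2913 and 2587, a log2 difference of 0.63 ± 0.13 (adjusted p = 0.033). In both genes the libraries of the 2 times did not overlap. nmad-1, described as a DNA N6-methyladenine demethylase gene, rose with little scatter, from 264, 261 and 277 CPM to 412, 428 and 396 (0.62 ± 0.12, adjusted p = 0.033).

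The other named rises were smaller in level or less well described. moe-3, a gene of the CCCH zinc-finger family of the oocyte maturation factor OMA-1, had 11.8, 9.87 and 11.5 CPM and then 22.1, 21.5 and 20.3 (0.95 ± 0.19, adjusted p = 0.0362). znf-593, a zinc-finger gene, had 162, 163 and 206 and then 283, 329 and 310.3 (0.80 ± 0.15, adjusted p = 0.0269), and obr-2, a gene for an oxysterol-binding-protein relative, 126.2, 105 and 138 and then 208, 214 and 192 (0.74 ± 0.13, adjusted p = 0.0157). Both were higher in each later library than in any earlier one. brp-1 had 1692 ± 133 CPM at 24 h and 3047 ± 497 at 48 h (0.85 ± 0.14, adjusted p = 0.00869), and tag-243 77.6 ± 12.9 and 129.9 ± 2.54 (0.74 ± 0.16, adjusted p = 0.0478), means ± SD with n = 3. A further 8 rises were in protein-coding genes known by a sequence name, with log2 differences of 0.66 to 1.17. Of the 19 rises, 12 were also called higher at 12 h than at 6 h, a step that shares no library with this one, where 2.66% of tested genes were called higher, and 0 were called lower.

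**Figure D2:**
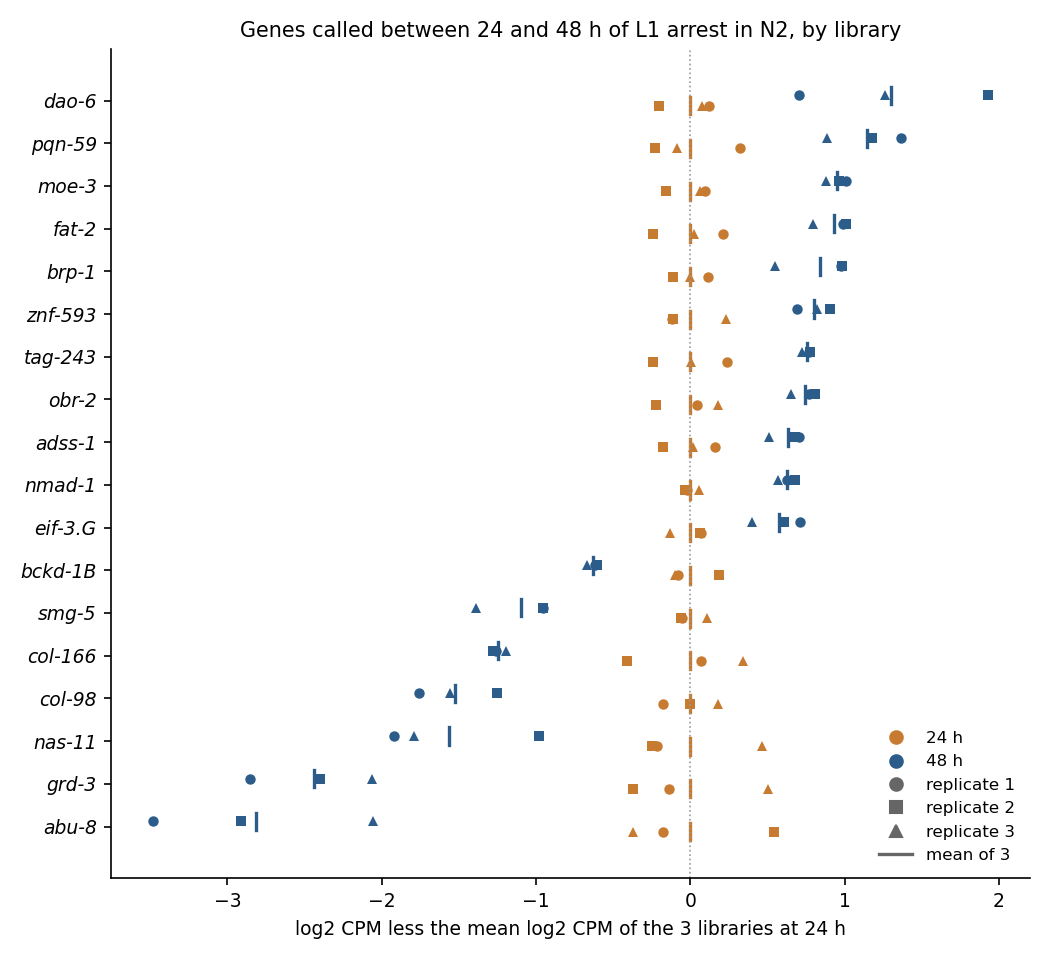
Log2 CPM of the 18 called genes with a public name in each of the 6 N2 libraries, less the gene's mean at 24 h (x axis, log2). Symbols give the replicate and short bars the mean of 3. For each gene the 3 libraries at 48 h lie wholly to one side of the 3 at 24 h, which was a condition for naming it.

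The 7 falls were in genes of the cuticle, of hedgehog-related signalling, of messenger RNA decay and of amino acid breakdown. abu-8 (WBGene00000031, V 5192995 to 5194608), of a family of repeat proteins made with the lining of the pharynx, fell most. It had 15.7, 25.8 and 13.7 CPM at 24 h and 1.58, 2.35 and 4.25 at 48 h, a log2 difference of -2.72 ± 0.57 (6.61-fold lower, adjusted p = 0.0488). All libraries at 48 h were below those at 24 h, after a mean of 523 CPM at 6 h and 228 at 12 h. abu-8 has close paralogues, so its reads may be split among family members. grd-3 (WBGene00001692, IV 3439655 to 3440453), a groundhog gene of the hedgehog-related family, had 19.9, 16.9 and 31 CPM and then 3.02, 4.13 and 5.23 (-2.43 ± 0.42, adjusted p = 0.0134), again without overlap.

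Of the cuticle collagens, col-98 (WBGene00000673, III 13019008 to 13020226) had 543, 614 and 696 CPM at 24 h and 182, 257 and 209 at 48 h (-1.51 ± 0.25, adjusted p = 0.00869), and col-166 (WBGene00000739, X 6280016 to 6280921) had 55, 39.5 and 66.3 and then 21.8, 21.6 and 22.9 (-1.28 ± 0.27, adjusted p = 0.0468). The 3 later libraries of col-166 were nearly equal. nas-11 (WBGene00003530, X 6713577 to 6716357), an astacin metalloprotease gene that overlaps another coding gene, had 17.8, 17.5 and 28.6 CPM and then 5.46, 10.505 and 5.99 (-1.53 ± 0.25, adjusted p = 0.00869). bckd-1B (WBGene00006518, I 7727257 to 7729092), for the E1 beta subunit of the dehydrogenase that breaks down branched-chain amino acids, had 44, 52.9 and 43.4 CPM and then 30.3, 30.6 and 29.3 (-0.64 ± 0.13, adjusted p = 0.033). In both genes the 2 times did not overlap.

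smg-5 (WBGene00004883, I 6734028 to 6736161), a gene of nonsense-mediated messenger RNA decay, had 12.1, 12.1 and 13.6 CPM at 24 h and 6.47, 6.48 and 4.79 at 48 h (-1.09 ± 0.20, adjusted p = 0.0157). It had been near the level of 24 h before, at 12.9 ± 1.3 CPM at 6 h and 14 ± 1.45 at 12 h (SD, n = 3), and 6.17 ± 0.925 at 72 h. In irld larvae it had 9.31, 9.26 and 9.87 CPM at 24 h and 9.88, 7.13 and 11 at 48 h, a log2 difference of -0.03 ± 0.19. The difference between the strains' steps was 1.06 ± 0.27 with an unadjusted p of 6.87e-04, and it did not pass adjustment over all genes (edgeR adjusted p = 1.00). For all 7 falls the libraries of the 2 times did not overlap, which held for 6.72% of all tested genes towards lower and 7.2% towards higher values. The 7 were called on these same libraries, so the lack of overlap is a description and adds no separate support. Of the 7, 2 were also called lower at 12 h than at 6 h (3.55% of tested genes) and 0 higher.

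Several genes of protein synthesis rose in the block fit. Of 33 translation factors, 1 (eif-3.G) was called, 5 with the block and 5 by DESeq2, all higher, and an unadjusted p under 0.05 gave 11 higher and 5 lower, with a median log2 difference of 0.09 against -0.02 for all tested genes. Less the latter, the list's median was 0.11, and -0.03 without replicate 1 at 24 h. eif-3.B had 1008, 746 and 791 CPM at 24 h and 1639, 1375 and 1165 at 48 h (0.72 ± 0.17, adjusted p = 0.0757, or 0.00168 with the block). eif-3.E (0.62 ± 0.15, block adjusted p = 0.00586) and eif-3.I (0.46 ± 0.11, block adjusted p = 0.0329) rose with it, so that 4 subunits of initiation factor 3 were called by that fit. The fifth was ife-1, a cap-binding protein gene, named after its values were seen. Of 23 tested ribosome biogenesis genes, 0 were called by edgeR, 3 higher with the block and 2 higher by DESeq2, and an unadjusted p under 0.05 gave 7 higher and 0 lower. These 3 were nst-1, a nucleostemin gene, with 1118, 834 and 979.6 CPM and then 1756, 1501 and 1369 (block adjusted p = 0.00416), lpd-7 (0.61 ± 0.17, block adjusted p = 0.00861) and tag-151 (0.62 ± 0.19, block adjusted p = 0.00612). The list summed to 6352, 5328 and 5678 CPM at 24 h and 8975, 7960.0 and 7200.0 at 48 h, and the later libraries were all higher.

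Cytosolic ribosomal protein genes were higher in sum at 48 h, with small differences per gene. Fitted values were positive for 78 of 81 tested members with a median of 0.23, 0 were called by edgeR, 1 with the block and 1 by DESeq2, and an unadjusted p under 0.05 gave 5 higher and 0 lower. The called member was rpl-24.2, with 607, 483 and 548 CPM and then 871, 795 and 759.6 (0.57 ± 0.15, adjusted p = 0.0996, or 0.0233 with the block). The list summed to 159679, 132686 and 162500.3 CPM at 24 h and to 172146, 189256 and 174449 at 48 h, without overlap. For 43 of the 81 genes every library at 48 h was above every library at 24 h, which held for 7.2% of all tested genes, and for 0 every one was below. Replicate 2 at 24 h was lowest of its group for 72 of the 81 genes. Pair by pair the list's median less that of all genes was 0.12, 0.50 and 0.10 in replicates 1, 2 and 3, so that the pair with that library differed most. Among 20 chaperone genes of the cytosol, which fold new proteins, 0 were called by edgeR, 3 higher by DESeq2 and 1 higher with the block, cct-7 of the chaperonin ring (552, 548 and 541 CPM, then 852, 846 and 734; block adjusted p = 0.0275), and an unadjusted p under 0.05 gave 7 higher and 3 lower. Of 32 aminoacyl-tRNA synthetase genes, 0 were called by edgeR and 2 with the block, lars-1 and rars-1, both higher, DESeq2 called 1, and an unadjusted p under 0.05 gave 4 higher and 2 lower. Mitochondrial ribosomal protein genes had a median of 0.03 over 66 tested members, with 0 calls by edgeR or with the block and 1 by DESeq2, and an unadjusted p under 0.05 gave 4 higher and 2 lower. Nuclear-encoded respiratory chain genes had a median of -0.01 over 69, with 0 calls by edgeR, 1 with the block and 1 by DESeq2, and an unadjusted p under 0.05 gave 3 higher and 2 lower. By that measure 5.81% of all tested genes were higher and 8.18% lower.

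Neuropeptide genes had fitted values above 0 for most members at 48 h, without a gene passing the main test. Of 30 tested FMRFamide-like peptide genes (flp), 30 had positive fitted differences with a median of 0.57, and an unadjusted p under 0.05 gave 17 higher and 0 lower. edgeR called 0 of them, the block fit 1 and DESeq2 4. The 1 called with the block was flp-21, which encodes a ligand of the foraging receptor NPR-1. It had 30.4, 20.6 and 23.1 CPM at 24 h and 59.5, 45.8 and 51.1 at 48 h (1.08 ± 0.23, adjusted p = 0.0507, or 0.0229 with the block), without overlap. flp-12 (29.4, 22.3 and 32.4, then 43.4, 49.6 and 63.3 CPM; 0.90 ± 0.24, adjusted p = 0.101) and flp-24 (81.1, 74.6 and 75.7, then 126.2, 104.4 and 95.5; 0.49 ± 0.15, adjusted p = 0.152) did not pass either fit, though their libraries did not overlap either. The list summed to 1618, 1227 and 1482 CPM at 24 h and 2116, 2143 and 1937 at 48 h, against 652 to 698 at 6 h and 2255 to 2609.6 at 72 h. For 15 of the 30 genes each later library exceeded each earlier one, against 7.2% of all tested genes. Left-out libraries moved the median, less that of all genes, between 0.53 and 0.71. Replicate 2 at 24 h was lowest of its group for 22 of the 30 genes.

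The 55 tested nlp genes, for other neuropeptide-like proteins, had a median of 0.40 and positive fitted values in 51, and an unadjusted p under 0.05 gave 16 higher and 0 lower; 0 were called by edgeR, 1 with the block and 3 by DESeq2. That 1 was nlp-80, with 121, 92.6 and 98.1 CPM and then 179, 214 and 139 (0.77 ± 0.19, block adjusted p = 0.0376). The machinery that makes and releases these peptides had a median of 0.34 over 15 genes, and an unadjusted p under 0.05 gave 7 higher and 0 lower; 0 were called by edgeR or with the block and 1 by DESeq2. egl-3, the proprotein convertase, had 1916, 1130.2 and 1132 CPM and then 2479, 2221 and 1745 (0.63 ± 0.22, adjusted p = 0.193). egl-21, the carboxypeptidase that trims the cut peptides, had 1450.1, 954 and 1090.1 and then 1815, 1758 and 1518 (0.54 ± 0.16, adjusted p = 0.137). For egl-3 the groups overlapped, since replicate 1 at 24 h reached the range of 48 h, and for egl-21 they did not. Of 100 tested receptor genes, 84 had positive fitted values with a median of 0.31, and an unadjusted p under 0.05 gave 11 higher and 0 lower. edgeR called 0, the block fit 2, npr-37 (block adjusted p = 0.0461) and npr-25 (block adjusted p = 0.0498), and DESeq2 1. Pair by pair the receptors' median less that of all genes was 0.02, 0.50 and 0.38 in replicates 1, 2 and 3. Replicate 2 at 24 h was lowest of its group for 32 of the 55 nlp genes and 52 of the 100 receptor genes. Other neuronal lists had medians of 0.22 over 61 cilia genes, with 7 higher and 2 lower at an unadjusted p under 0.05, 0.31 over 24 monoamine genes (2 higher and 1 lower) and 0.13 over 26 synaptic and transmitter genes (5 higher and 2 lower). None of these lists held an edgeR call, and the block fit called 1 cilia gene (xbx-3) and 1 synaptic gene (unc-2, a calcium channel gene), both higher, and DESeq2 called 2 cilia genes and 1 monoamine gene, all higher. Channel and chemoreceptor lists had medians of 0.09 over 87 ligand-gated channel genes, 0.09 over 70 potassium channel genes and 0.20 over 275 chemoreceptor genes. An unadjusted p under 0.05 gave 1 higher and 5 lower, 0 and 1, and 13 and 13 in these. edgeR called 0 of them, and the block fit and DESeq2 each called 1 ligand-gated and 1 potassium channel gene, all lower. The 11 neuron markers, several of them members of lists in this paragraph, had a median of 0.36 and summed to 5425, 3744 and 3763 CPM and then 6726, 6267 and 5192. In RNA of whole larvae a larger neuronal share of the RNA and more of these transcripts per neuron cannot be told apart, nor can fewer cells of a type and less RNA per cell.

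**Figure D3:**
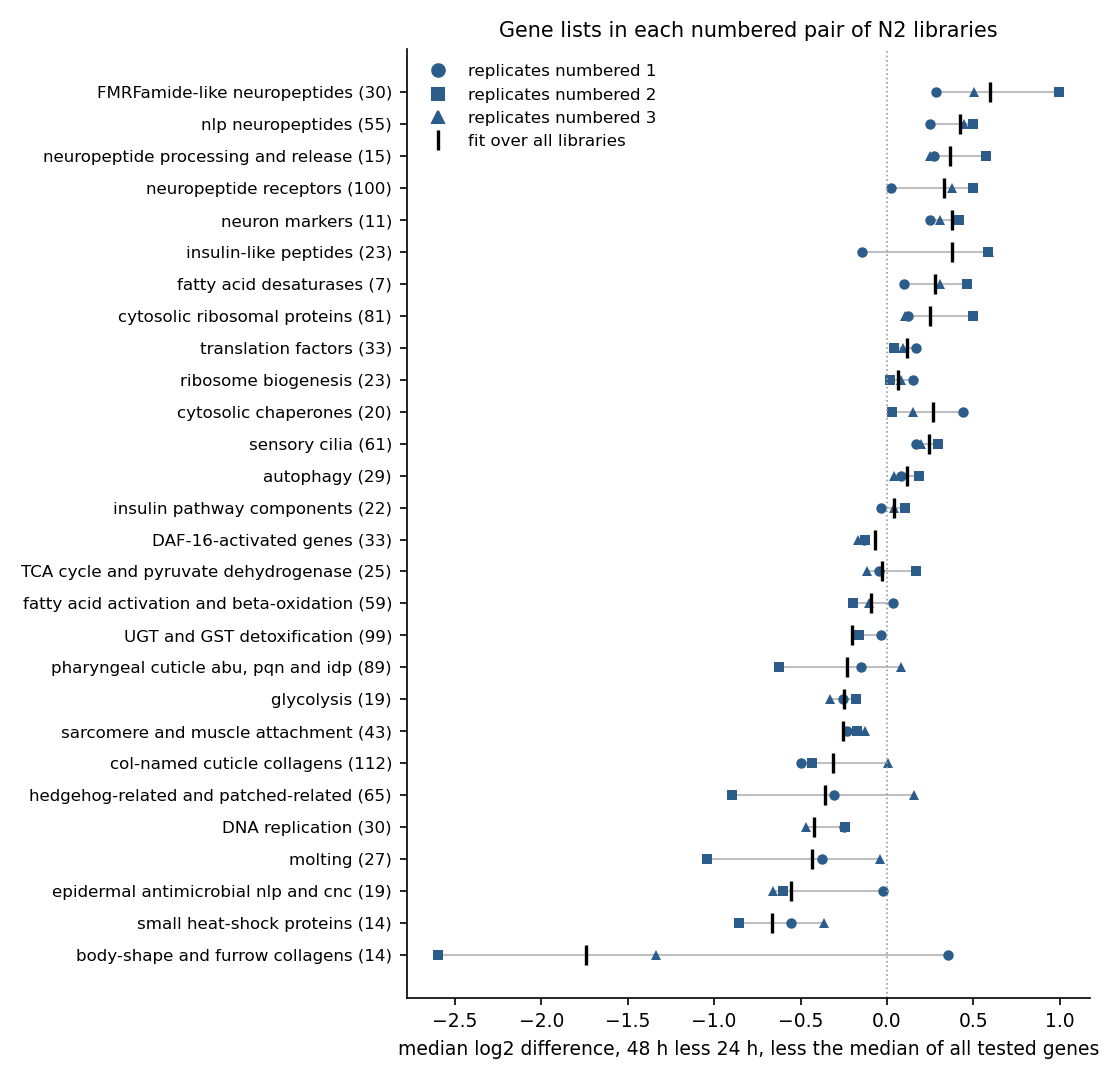
Median log2 difference (48 h less 24 h, less the median of all tested genes) of 28 gene lists in each numbered pair of N2 libraries (symbols) and in the fit over all libraries (black bars), with the number of tested members in brackets. Neuropeptide lists lie to the right of 0 in all 3 pairs, the receptors by only 0.02 in the first. The body-shape collagens run from 0.35 in the first pair to -2.60 in the second.

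Cuticle and molting lists had negative median differences, and the libraries at 24 h differed widely in their level. Of 112 tested col genes, 2 were called lower (col-98 and col-166) and 0 higher, 3 lower and 1 higher with the block, 9 lower and 1 higher by DESeq2, and an unadjusted p under 0.05 gave 4 higher and 19 lower. The median was -0.33, and the list summed to 9671, 8286 and 11447 CPM at 24 h and 5563, 6229 and 5559 at 48 h. col-42 had 2363, 2447 and 2783 CPM and then 998, 1253 and 915 (-1.26 ± 0.28, adjusted p = 0.0537, or 0.0334 with the block). col-181 went the other way, from 7.31, 8.04 and 8.62 to 26.6, 22 and 17.6 (1.46 ± 0.34, block adjusted p = 0.0281). Both were without overlap between the times. The 14 tested collagens that set body shape and line the cuticle furrows had a median of -1.77, and an unadjusted p under 0.05 gave 0 higher and 7 lower; 0 were called by edgeR, 0 with the block and 5 lower by DESeq2. They summed to 46.6, 509.9 and 253 CPM at 24 h and to 54.2, 95.4 and 72.6 at 48 h, so that replicate 1 at 24 h was already at the level of 48 h and replicate 2 was highest. dpy-17 had 10.2, 188 and 88.7 CPM at 24 h and 16.099, 10.4 and 15.5 at 48 h (-2.78 ± 0.74, adjusted p = 0.101). In replicate 1 it stood lower at 24 h than at 48 h, and in the other pairs far higher. Less the median of all genes the list's median was -1.74, and it ran from -2.26 to -1.0 as each of the 6 libraries was left out.

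Molting genes differed between the same libraries. Of 27 tested, 0 were called by edgeR, 2 lower with the block and 6 lower by DESeq2, and an unadjusted p under 0.05 gave 0 higher and 10 lower, with a median of -0.45 that ran from -0.80 to -0.10, less the median of all genes, as single libraries were left out. noah-1, which encodes a protein of the matrix between epidermis and cuticle, had 10.1, 55.5 and 39.7 CPM and then 7.47, 5.7 and 6.32 (-2.44 ± 0.57, adjusted p = 0.0708, or 0.0329 with the block), and its partner noah-2 had 2.51, 60.9 and 27.9 and then 1.87, 1.34 and 4.36 (-3.57 ± 0.96, block adjusted p = 0.0422). In both genes replicate 1 at 24 h was low and the other replicates high, and noah-2 overlapped between the times. hch-1, the astacin protease needed for timely hatching, had 0.457, 18.7 and 8.96 CPM and then 0.287, 0.447 and 1.52 (-3.58 ± 1.02, adjusted p = 0.124, or 0.024 with the block), with the same order of libraries at 24 h. wrt-10, a warthog gene of the hedgehog-related family, had 0.8, 8.87 and 8.16 and then 0.575, 0.335 and 0.545 (-3.60 ± 0.87, block adjusted p = 0.0422). The 65 hedgehog- and patched-related genes had a median of -0.38, with 1 called lower (grd-3), 2 lower with the block and 3 lower by DESeq2, and an unadjusted p under 0.05 gave 3 higher and 12 lower. The list of 89 abu, pqn and idp genes, named for the pharyngeal cuticle though not every member need belong to it, had 1 call in each direction (pqn-59 higher and abu-8 lower). It had 2 in each with the block, 2 higher and 9 lower by DESeq2, and an unadjusted p under 0.05 gave 3 higher and 19 lower, with a median of -0.25. pqn-59 ran against the list already from 6 to 24 h, with a log2 difference of 2.49 where the list's median was -1.87. The list summed to 6744, 6243 and 5162 CPM at 24 h and 10552, 9198 and 7810.3 at 48 h. Of these sums pqn-59 alone held 3139, 2141 and 2362 CPM and then 6460.5, 5679 and 4648. The higher sums at 48 h therefore do not show a rise of the other members. Of 19 tested epidermal antimicrobial peptide genes, 0 were called by edgeR and 1 with the block (nlp-28) and by DESeq2, and an unadjusted p under 0.05 gave 0 higher and 6 lower; they summed to 244, 268 and 358 CPM and then 182, 172 and 200.2, without overlap.

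**Figure D4:**
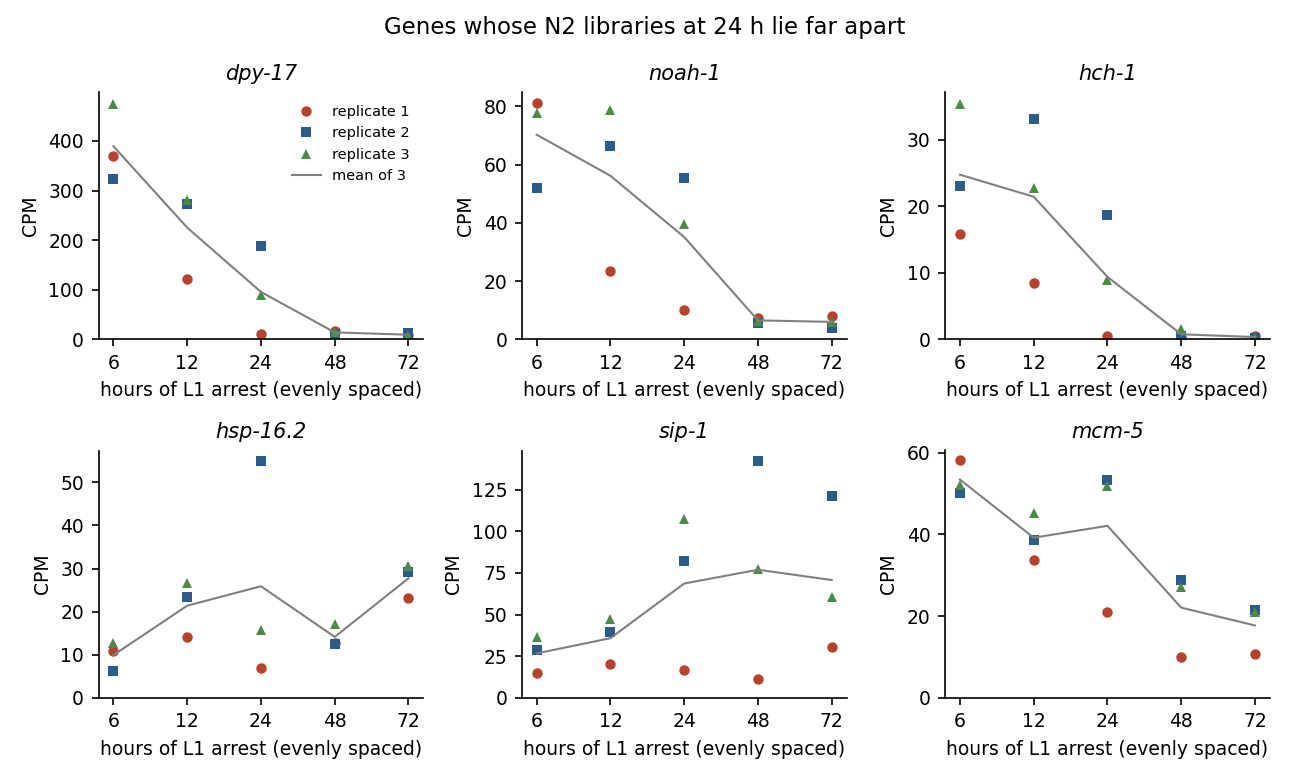
CPM of 6 genes in each N2 library by hours of L1 arrest, with symbols for the replicate and a line through the mean of 3. At 24 h replicate 1 of dpy-17, noah-1 and hch-1 lies near the level of 48 h, replicate 2 of hsp-16.2 stands above the others, and replicate 1 of sip-1 and mcm-5 lies below the others at both 24 and 48 h.

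Small heat-shock genes had a negative median difference that shrank without replicate 2 at 24 h. The 14 tested gene IDs summed to 604, 1826 and 708 CPM at 24 h and 611, 847 and 619 at 48 h, with 0 called by edgeR, 0 with the block and 0 by DESeq2, and an unadjusted p under 0.05 gave 0 higher and 5 lower. hsp-16.48, a chaperone gene induced by heat, had 32.9, 327 and 44.8 CPM at 24 h in 1 of its 2 near-identical copies, and then 12.4, 46.7 and 24.7 (-2.27 ± 0.98, adjusted p = 0.298), and hsp-16.2 had 6.97, 54.9 and 15.7 and then 12.8, 12.5 and 17.1. Both stood several times higher in that library than in the others. F44E5.5, an hsp70-like gene, had 324, 1429 and 218 CPM and then 184, 303 and 178, with the same library highest. Less the median of all genes, the list's median was -0.66 with all libraries and -0.16 without that one. hsf-1, the heat-shock transcription factor, was at 35.8, 46.9 and 32.7 CPM and then 34.4, 33.1 and 33.3 (-0.20 ± 0.17, adjusted p = 0.644), and hsp-12.6 at 248, 161 and 179 and then 316, 271 and 218 (0.45 ± 0.41, adjusted p = 0.672). sip-1, a small heat-shock gene of embryos and germ cells, divided the libraries by replicate instead, at 16.46, 82.4 and 107 CPM and then 11.2, 142 and 77.5.

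No gene of the insulin pathway passed the test. daf-16, the FOXO transcription factor, had 255, 187 and 183 CPM at 24 h and 271, 272 and 212 at 48 h (0.27 ± 0.19, adjusted p = 0.556), and daf-2, the insulin receptor, 548, 351 and 349 and then 556, 419 and 374 (0.11 ± 0.21, adjusted p = 0.866). In both genes the groups overlapped. Of 22 tested pathway components, 0 were called by edgeR, with the block or by DESeq2, and an unadjusted p under 0.05 gave 1 higher and 2 lower, where 5.81% of all tested genes were higher and 8.18% lower. Of 23 tested insulin-like peptide genes, 0 were called by these fits and an unadjusted p under 0.05 gave 5 higher and 1 lower, with a median of 0.36 and summed levels of 188, 174 and 164 CPM and then 239, 266 and 228, without overlap. ins-17 made up most of the sum, at 125.6, 101 and 99.4 and then 178, 154 and 125.6 (0.49 ± 0.18, adjusted p = 0.207). daf-28, a peptide gene that keeps larvae out of dauer, had 1.49, 2.47 and 3.91 and then 0.719, 10.3 and 5.88 (1.12 ± 0.69, adjusted p = 0.491), with replicate 1 at 48 h lowest of all 6. Of 33 tested genes activated by DAF-16, 0 were called by edgeR, with the block or by DESeq2, and an unadjusted p under 0.05 gave 1 higher and 5 lower, with a median of -0.09. Less the median of all genes this was -0.07, and 0.04 without replicate 3 at 48 h. mtl-2, a metallothionein gene, had 29.4, 12.5 and 22.2 CPM and then 76.3, 46.5 and 49.6 (1.43 ± 0.49, adjusted p = 0.189), while mtl-1 had 157, 179 and 199.7 and then 165, 212 and 180.0 (0.06 ± 0.32). The 13 tested DAF-16-repressed genes had a median of 0.06 and 0 calls by these fits, with 1 higher and 0 lower at an unadjusted p under 0.05. Less that of all genes their median was 0.08, and -0.24 without replicate 2 at 24 h.

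In lipid metabolism a second desaturase rose in the block fit. fat-6, a stearoyl-CoA desaturase, had 545, 280.1 and 298 CPM at 24 h and 1142, 821 and 671 at 48 h (1.23 ± 0.49, adjusted p = 0.254, or 0.0465 with the block), and the times did not overlap. Its close relative fat-7 had 0.914, 11 and 2.41 and then 0.287, 1.01 and 0.653 (-2.84 ± 1.38, adjusted p = 0.361), with replicate 2 at 24 h far above the rest. Of 59 tested genes of fatty acid activation and beta-oxidation, 0 were called by edgeR, 2 lower by DESeq2 and 2 lower with the block: acs-12, an acyl-CoA synthetase gene (50.3, 39.9 and 44.9 CPM, then 36.7, 23.8 and 27.7; block adjusted p = 0.00882), and acdh-2, an acyl-CoA dehydrogenase gene (0.686, 15.4 and 17.3, then 0.144, 1.45 and 2.51; block adjusted p = 0.00719). In this list an unadjusted p under 0.05 gave 0 higher and 6 lower, where 5.81% of all tested genes were higher and 8.18% lower. acs-2, a fasting-induced member, had 0.457, 3.66 and 0.345 and then 1.01, 0.782 and 2.07 (-0.26 ± 1.18, adjusted p = 0.957), with overlap. fasn-1, the fatty acid synthase, had 203, 539.5 and 209 and then 177, 157 and 135 (-1.02 ± 0.33, adjusted p = 0.178), again with replicate 2 at 24 h far above the rest, and atgl-1, the fat lipase, 148, 115 and 125 and then 200.2, 134 and 149.5 (0.32 ± 0.17, adjusted p = 0.418).

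Glycolysis genes had a median of -0.27 over 19 tested members, 0 of them called by edgeR, with the block or by DESeq2, and an unadjusted p under 0.05 gave 1 higher and 7 lower. tpi-1, triosephosphate isomerase, had 115, 127 and 125 CPM and then 104.1, 96.6 and 94.1 (-0.32 ± 0.12, adjusted p = 0.214), without overlap. enol-1, enolase, had 490.3, 576 and 431 and then 344, 438 and 334, with replicate 2 at 48 h inside the range of 24 h. The 7 tested genes of the glyoxylate cycle and gluconeogenesis had a median of -0.19 and 0 calls by these fits, with 1 higher and 1 lower at an unadjusted p under 0.05. icl-1, the glyoxylate cycle enzyme induced by starvation, stood at 36.6, 149.6 and 98.2 and then 52, 41.3 and 81.5 (-0.70 ± 0.79, adjusted p = 0.751). Among trehalose and glycerol genes tps-1, a trehalose-6-phosphate synthase, had 121, 102 and 114 and then 118.7, 102 and 93.7 (-0.11 ± 0.14), and tps-2 127, 94.8 and 97.9 and then 171, 138 and 128 (0.45 ± 0.14, adjusted p = 0.17). The list of 10 had 0 calls by edgeR or with the block and 1 by DESeq2, and an unadjusted p under 0.05 gave 2 higher and 1 lower. aak-1, a catalytic subunit of AMP-activated kinase, the cell's energy sensor, had 18.9, 23.5 and 20.3 CPM and then 46.9, 43.8 and 35.2 (1.00 ± 0.22, adjusted p = 0.0507, or 0.0156 with the block), and its groups were well separated. aak-2, the other catalytic subunit, had 169, 117 and 145 and then 154, 144 and 134 (0.00 ± 0.16, adjusted p = 0.997).

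Genes of cell division had mostly negative fitted values, none past the main test, and their level divided the libraries by replicate. The 30 tested DNA replication genes had a median of -0.44, 0 calls by edgeR, with the block or by DESeq2, and an unadjusted p under 0.05 gave 0 higher and 1 lower. They summed to 528, 1019 and 1067 CPM and then 489, 862 and 716, and replicate 1 was lowest at 24 h for 28 of the 30. mcm-5, of the replicative helicase, had 21, 53.4 and 51.9 CPM and then 10.1, 28.9 and 27.2 (-0.93 ± 0.39, adjusted p = 0.287): it was lower at 48 h in each pair, while the groups overlapped. cyd-1, cyclin D, had 14.7, 16.09 and 22.1 and then 10.6, 13.2 and 12.9 (-0.52 ± 0.21, adjusted p = 0.252), without overlap. lin-35, the retinoblastoma homologue that holds back the cell cycle, had 27.4, 45.2 and 34.2 and then 27.6, 25.14 and 19.7 (-0.56 ± 0.15, adjusted p = 0.098, or 0.0422 with the block), and it overlaps 2 other coding genes. In replicate 1 it was level between the times and in the others lower at 48 h. Among heterochronic genes, which time larval fates, lin-14 had 450.04, 309 and 304 and then 463, 437 and 339.6 (0.22 ± 0.16, adjusted p = 0.56), and lin-28 227, 176 and 201 and then 255, 245 and 209 (0.23 ± 0.14, adjusted p = 0.476). Of 26 germ cell and P granule genes, 0 were called by edgeR and 1 higher by DESeq2 and with the block, the latter car-1, and an unadjusted p under 0.05 gave 1 higher and 2 lower. The 43 sarcomere and muscle attachment genes had a median of -0.28 with 0 calls by these fits, and an unadjusted p under 0.05 gave 0 higher and 8 lower. By that measure 5.81% of all tested genes were higher and 8.18% lower. unc-52, perlecan, had 257, 725 and 229 and then 199.8, 217 and 185 (-1.01 ± 0.38, adjusted p = 0.229), with replicate 2 at 24 h far above the rest, and unc-54, the major body-wall myosin, 21138, 12063 and 13916 and then 18998, 15919 and 11969 (-0.01 ± 0.22).

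Among the markers of other tissues and stages described here, median differences ran from -0.29 for 18 sperm genes to 0.12 for 12 embryonic genes. The 16 tested intestine markers had a median of -0.07 and the 10 pharynx markers 0.08, with 0 calls by edgeR, with the block or by DESeq2, and the counts at an unadjusted p under 0.05 were 0 and 0 for the intestine and 0 higher and 1 lower for the pharynx. As single libraries were left out, the median less that of all genes ran from -0.21 to 0.22 for the intestine and from -0.14 to 0.24 for the pharynx. The 17 tested hypodermis and seam markers had a median of -0.15 with 1 call, grd-3, which was lower. The block fit and DESeq2 each called 1 of them, also lower, and an unadjusted p under 0.05 gave 0 higher and 5 lower. This list summed to 258, 241 and 264 CPM at 24 h and 233, 232 and 210.5 at 48 h, without overlap. Adult yolk and oocyte genes summed to 22.3, 35.5 and 60.9 CPM and then 19.4, 50.7 and 49.7, sperm genes to 52.3, 66.8 and 53.1 and then 39.1, 49.8 and 57.1, and embryonic genes to 419, 433 and 341 and then 443, 420.1 and 351. The sums of the yolk and oocyte, the sperm and the embryonic lists each overlapped between the times. Of 61 tested cuticlin and astacin genes, 1 (nas-11) was called, 2 with the block (hch-1 besides), all lower, and 2 lower and 1 higher by DESeq2, and an unadjusted p under 0.05 gave 4 higher and 8 lower. Detoxification genes of the UGT and GST families had a median of -0.23 over 99 tested, with 0 calls by edgeR and 1 in each direction with the block, gst-6 higher and gst-24 lower, 2 lower by DESeq2, and an unadjusted p under 0.05 gave 2 higher and 11 lower. Proteasome subunit genes had a median of -0.06 over 33 tested, vacuolar ATPase genes -0.05 over 21, autophagy genes 0.09 over 29 and endoplasmic reticulum unfolded protein response genes -0.20 over 24. None of these had an edgeR call, and the block fit called only epg-6 of autophagy, higher, and DESeq2 1 gene in each of the proteasome, autophagy and endoplasmic reticulum lists. At an unadjusted p under 0.05 there were 3 higher and 1 lower in the proteasome, 0 and 1 in the vacuolar ATPase, 3 and 3 in autophagy and 2 and 5 in the endoplasmic reticulum list. For all lists of this paragraph the shares over all tested genes were 5.81% higher and 8.18% lower.

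Genes that turn back would be called in one direction from 6 to 24 h and in the other from 24 to 48 h. By edgeR, 5296 genes were called at 24 h against 6 h (34.2%), 2461 higher and 2835 lower, and 0 of these turned back in either direction at an adjusted p under 0.05. Both contrasts use the 24 h libraries, so that an error in those libraries would move them in opposite directions, and the counts are a description. With the block in both contrasts 6 genes were high and 2 low at 24 h, by DESeq2 6 and 4, and by limma-voom 1 and 0. With an unadjusted p for the step, 43 were high and 82 low at 24 h. With the early change taken from 12 h against 6 h, which uses no 24 h library, the unadjusted counts were 9 and 15 and the adjusted counts 0 and 0. With it taken from irld at 24 h against 6 h, they were 25 and 50, and 0 and 0.

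sod-3 (WBGene00004932, X 17092753 to 17094306), a mitochondrial superoxide dismutase gene and a standard readout of DAF-16, was first of the 5 genes high at 24 h that had an unadjusted p under 0.05 for the step, a public name, a mean of at least 2 CPM and no overlap between 24 and 48 h, ranked by the smaller of their log2 differences. It had 5.51, 3.48 and 4 CPM at 6 h. The 12 h libraries held 10.6, 6.82 and 7.77 CPM, those of 24 h 12.9, 16.45 and 11.9. It then had 7.33, 8.94 and 6.21 at 48 h, followed by 2.52, 4.74 and 5.75 at 72 h. Every library at 24 h was above every library at 6, 12, 48 and 72 h. The step was -0.88 ± 0.32 with an unadjusted p of 0.0112 (adjusted p = 0.212), against 1.68 ± 0.33 from 6 to 24 h (edgeR adjusted p = 2.57e-04), and irld larvae had a step of -1.05 ± 0.32 (edgeR adjusted p = 0.151). sod-3 overlaps 2 other coding genes. add-2, a gene for adducin of the membrane skeleton, had 17.5, 18 and 19.9 CPM at 6 h, then 29.4, 26.6 and 33.1 at 24 h, followed by 21.6, 18.9 and 19.9 at 48 h, and turned back with the block (-0.56 ± 0.14, adjusted p = 0.0853, or 0.038 with the block). Its 24 h libraries were above all other libraries of N2. nlp-28, an epidermal antimicrobial peptide gene, had 42.5, 44.1 and 44.7, then 63.9, 45.2 and 74.9 and then 35.6, 32.7 and 29.3 (block adjusted p = 0.0186 for the step). Replicate 2 at 24 h was near the level of 6 h. lin-35, given above, also turned back with the block, while in irld its step was 0.03 ± 0.15. It had 28.4, 28.9 and 26.3 CPM at 6 h, so that replicate 1 did not rise by 24 h. The early rises of nlp-28 and lin-35 did not pass the main fit (edgeR adjusted p = 0.0746 and 0.0655, or 0.046 and 0.0454 with the block). The other 3 genes high at 24 h in the block fit were R13H4.2, F15E6.10 and WBGene00195253, which carry no public name. R13H4.2 had mean levels of 67.1 CPM (6 h), 101 (12 h), 175 (24 h), 96.9 (48 h) and 61.3 (72 h). Its early rise passed the main fit (edgeR adjusted p = 4.61e-06), and its step of -0.86 ± 0.19 did not (adjusted p = 0.0537). The step passed with the block (adjusted p = 0.0192), by DESeq2 (0.00251) and by limma-voom (0.0457). In irld it was called too (-0.97 ± 0.19, edgeR adjusted p = 0.0162). R13H4.2 overlaps another coding gene. tap-1, scl-2 and mdt-4 completed the 5 high genes, with steps of -0.59 ± 0.18, -0.40 ± 0.18 and -0.42 ± 0.15 and unadjusted p of 0.00302, 0.0336 and 0.0109.

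Among genes low at 24 h, zig-7 (WBGene00006984, I 4790644 to 4792483), of a family of secreted immunoglobulin-domain proteins, had 8.22, 7.62 and 6.88 CPM at 6 h, then 4.46, 4.3 and 5.74 at 24 h, followed by 8.34, 8.38 and 8.93 at 48 h (0.82 ± 0.20, adjusted p = 0.0757, or 0.0392 with the block). The 24 h libraries were below all of those at 6 and 48 h, and in irld the step was 0.77 ± 0.20. rei-1, a Rab guanine exchange factor gene, was the other low one by the block fit, with 30.01, 37.7 and 34.8, then 20.3, 21.1 and 33.3 and then 46.3, 39.7 and 45.5 (block adjusted p = 0.0302). Replicate 3 at 24 h was within the range of 6 h. The mean of rei-1 was lowest at 12 h, at 20.8 CPM against 24.9 at 24 h. Its early fall did not pass the main fit (edgeR adjusted p = 0.1, or 0.0492 with the block). ptr-20, a patched-related gene, had 11.6, 6.88 and 6.06, then 4.91, 4.2 and 4.6 and then 7.33, 8.6 and 9.48 (0.89 ± 0.29, unadjusted p = 0.00506), and aqp-8, an aquaporin gene, 21.6, 17.6 and 15.4, then 13, 6.49 and 8.5 and then 16.7, 13.3 and 14.4 (0.67 ± 0.23, unadjusted p = 0.00888). ptr-20 was lowest at 12 h, not 24 h, and aqp-8 in replicate 1 at 24 h lay close to the 48 h libraries. clec-265, acc-1, sra-37, arrd-15 and cutl-20 completed the leading low genes, with log2 steps of 0.91, 0.87, 0.67, 0.66 and 0.61. Of the 43 high and 82 low genes, 36 and 56 had a fitted irld step of the same sign, and 9 and 19 also an unadjusted p under 0.05 there, where 5.76% of all tested genes were lower and 4.83% higher by that measure. Of them, 1 and 1 were called in irld.

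**Figure D5:**
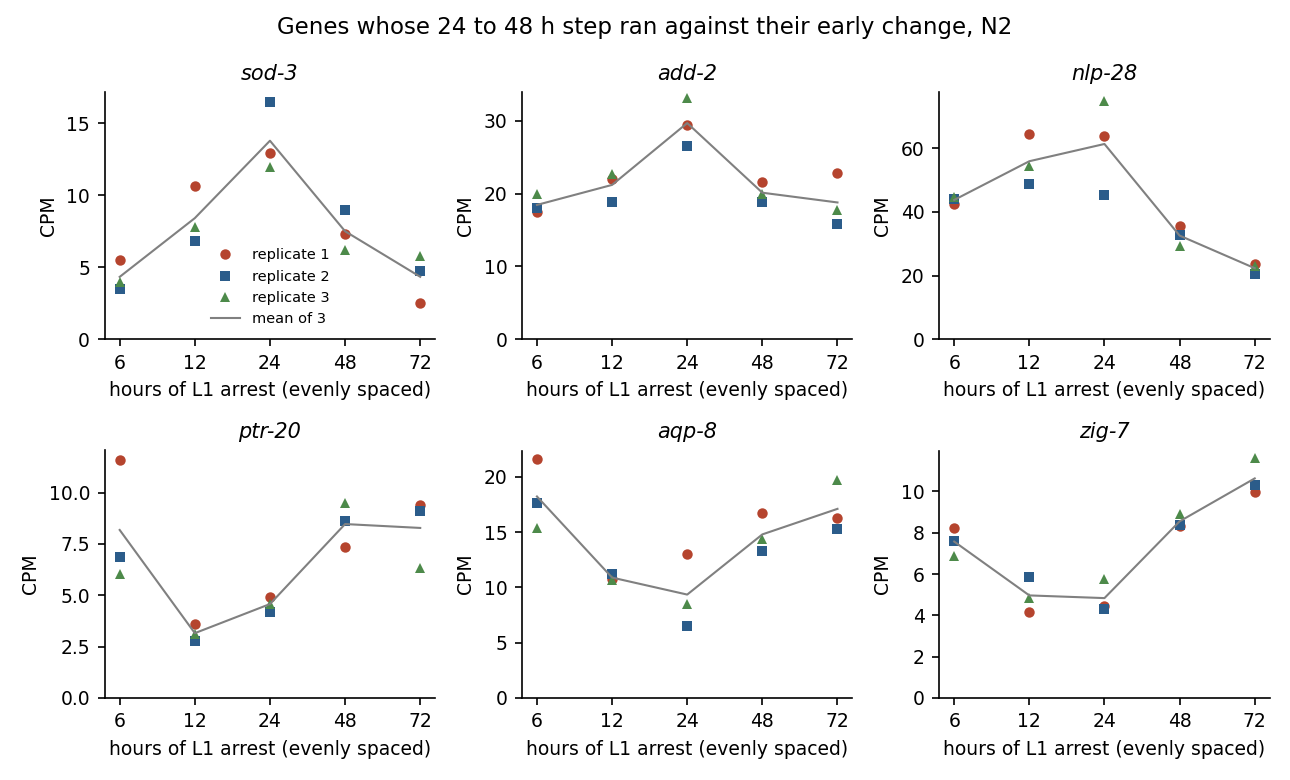
CPM of 6 genes in each N2 library by hours of L1 arrest, with symbols for the replicate and a line through the mean of 3. The 24 h libraries of sod-3 and add-2 lie above those of the other times, and those of zig-7 below the libraries of 6 and 48 h.

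The same step in irld, made from other libraries, called 99 genes (0.638%), 63 higher (0.406%) and 36 lower (0.232%), by edgeR. Left-out irld libraries brought the count to between 0 and 50. The calls of both strains rest on 1 estimate of the spread over all 30 libraries, and fits of each strain alone called 13 genes in N2 and 2 in irld. All 26 genes called in N2 had the same fitted direction in irld, and 20 were called there too, 15 higher and 5 lower, which was 76.9% of the N2 calls and 20.2% of the irld calls. eif-3.G, for example, had 228, 195.7 and 186 CPM at 24 h and 350.4, 321 and 325 at 48 h in irld (0.71 ± 0.12, edgeR adjusted p = 0.0127), and abu-8 31.7, 28.2 and 23.6 and then 2.47, 0.964 and 6.86 (-3.06 ± 0.55, edgeR adjusted p = 0.0136). adss-1, tag-243, smg-5 and bckd-1B were among the N2 calls that did not pass in irld. Of the 208 genes called with the block in N2, all 140 rises and 66 of 68 falls had the same fitted sign in irld, and 44 and 14 were called there without a block. Across 11771 genes with a mean of at least 2 CPM the log2 steps of the strains had a Pearson's r of 0.570, as a description over genes that are not independent and share 1 fit and filter. The test of the difference between the strains' steps called 0 genes by edgeR, DESeq2 and limma-voom, with 291 at an unadjusted p under 0.05 by edgeR. Lists differed in their medians: flp genes had 0.30 in irld against 0.57 in N2, neuropeptide receptors 0.07 against 0.31, ribosomal proteins 0.28 against 0.23, col genes -0.68 against -0.33, and body-shape collagens -0.81 against -1.77. These differences between strains were not tested as lists.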

How the data were processed

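Polyadenylated RNA of whole starved larvae was sequenced in 30 libraries, 10 groups of 3, of which 6 make up the step described here. Per the submitters' processing notes, Bowtie 1.2.2 aligned the reads and HTSeq 0.11.2 made the gene counts. The authors' text sheet names the WS273 genome with the ERCC sequences, and whether counting used strand is not given in the sources used here. The deposited values used are raw counts per gene; HTSeq's own categories and the ERCC controls stayed out of library sizes. Reads not aligned were 35.3 to 38.9% of each of the 6 libraries and ambiguous reads 1.84 to 2.35%. The authors' deposited CPM values, log2 fold changes, F scores and p-values (edgeR 3.24.4) were not used.

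Counts were tested with edgeR 4.0.16 in R 4.3.3 (TMM scaling, filterByExpr, robust quasi-likelihood fit with 1 coefficient per group over all 30 libraries), with Benjamini-Hochberg adjustment over 15508 genes. DESeq2 1.42.0 and limma-voom (limma 3.58.1) were alternatives. CPM values are edgeR's from TMM-scaled libraries. The fit was tested on simulated counts with known changes in N2 at 48 h, 50 genes for each size of change. It recovered 0% of 1.25-fold, 6% of 1.5-fold, 48% of 2-fold and 90% of 4-fold changes, and called 4 unchanged genes. The simulated libraries were drawn independently, without deviations shared by replicate number. Replicates are labelled as biological. Same-numbered N2 libraries at 24 and 48 h had correlated deviations from their group means (0.60, 0.35 and 0.25 over 11771 genes, each above 0.1), so the numbers were taken to pair them. Of the 6 differently numbered pairs, replicate 2 at 24 h with 3 at 48 h had 0.26, 3 with 2 had 0.17 and the other 4 ran from -0.46 to -0.29. These values set replicate 1 apart, but leave the pairing of replicates 2 and 3 by number uncertain. The block was fitted over all 30 libraries, those of irld included. Coordinates are of WBcel235 from the annotation supplied with symbols, which matched 93.9% of gene IDs.

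Genes were named by rule: the 12 largest called rises and falls with a public name, a mean of at least 2 CPM and no overlap between the times, up to 8 genes per direction that turned back by an unadjusted p under the same conditions (5 high and 8 low at 24 h), up to 4 members of each list with the smallest p, and a fixed set of starvation genes. Genes outside it are hsp-16.2, F44E5.5 and sip-1, and genes called in the block fit, chosen after their values were seen. The members, the 75 lists and the tests were chosen with earlier results of these data known. ERCC RNA was added in proportion to total RNA and does not measure RNA per larva.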

Additional observations from a re-analysis of the deposited data

How the results depend on the processing

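The count of 26 calls moved to 56 with upper quartile scaling (44 higher, 12 lower), 63 with library size alone (46 lower), 0 with ERCC scaling (0 higher, 0 lower), 16 without a filter (10 higher), 330 with DESeq2 (180 higher, 150 lower), 13 in a fit of N2 alone (8 higher), 11 with a 2-fold minimum (5 higher) and 208 with the replicate block (140 higher, 68 lower). RLE scaling gave 30 higher. Added after seeing the data, the replicate block within N2 alone gave 454 (289 higher, 165 lower), the 6 libraries alone 0, and those 6 with the block 104. Without single libraries the count ran from 2 to 164, with 1 to 78 higher and 0 to 86 lower. The cause of these moves was not tested.

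Turned-back genes high at 24 h numbered 1 with RLE, upper quartile, no filter and limma-voom, 3 with library size, 6 with DESeq2, 6 with the block, 43 at an unadjusted p and 0 to 5 without single libraries. Those low at 24 h numbered 4 with DESeq2, 2 with the block, 82 at an unadjusted p and 0 to 4 without single libraries. The 24 against 6 h count was 2134 with ERCC scaling, 3048 with a 2-fold minimum and 4338 to 5630 without single libraries, and the 24 against 12 h count 504, 1056 and 1260 to 3206. DESeq2 called 19 genes from 48 to 72 h. The irld step had 3 calls with ERCC scaling, 55 without a filter, 322 with DESeq2, 2 in irld alone, 33 with a 2-fold minimum, 243 with the replicate block, whose numbers did not pair those libraries (0.18, -0.09 and 0.00), and 0 to 50 without single libraries.

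No named gene past the threshold, with or without the alternative, changed sign. Among named genes short of it 15 of 312 took the other sign under some alternative (33 of 4989 values), and the medians of 25 of 75 lists did so (51 of 1200 values, 44 of them from leaving out 1 library), among them translation factors, DAF-16-activated and DAF-16-repressed genes, germ cells, histones and the intestine, pharynx and adult markers. Of the named genes' alternative values 4703 stayed on their side of the threshold, 165 passed it and 121 no longer did. List medians moved by more than the spread between pairs in 74 of their alternatives and by less in 1126. Genes under the filter on low counts were not tested, and with 3 libraries per time a difference that missed the threshold is not shown to be absent.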
